A study of Mus musculus with 8 samples.

Results

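The genes described here are matrix metalloproteinases and the proteins that hold them in check: the enzymes Mmp2, Mmp3, Mmp9, Mmp14 and Mmp15, the tissue inhibitors Timp1, Timp2, Timp3 and Timp4, and the membrane-anchored inhibitor Reck. Members were chosen by name, and a probe set counted only where the annotation gave it that 1 symbol. Where a gene had several, the brightest on average was kept. Of the 10 genes, 9 had such a probe set among the 18193 genes of the table, and Mmp15 had none in the annotation used here. Of these 9, 7 read above 5 on the log2 scale in 4 or more arrays and were tested, while Mmp3 and Mmp9 lay below 5 in all 8 arrays and are given without a test. Ventricle RNA came from 4 mice with a CHF1/Hey2 transgene under the myocardial mlc2v promoter (TG) and 4 wild-type mice (WT). All were male, 8 to 12 weeks old and on the FVB background, an inbred strain. Both groups had the ascending aorta banded for 1 week, which loads the left ventricle with pressure; no unbanded heart is compared here.

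Matrix metalloproteinases are zinc enzymes that cut collagens and other proteins of the extracellular matrix. They are made as inactive precursors, and the tissue inhibitors (TIMPs) block the active enzymes by binding the catalytic site. In a pressure-loaded ventricle the balance between enzymes and inhibitors bears on how the collagen network is laid down and taken apart, and much of this machinery is made by fibroblasts and other non-myocyte cells.

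Some arrays stood apart. The r of TG replicate 2 with the rest was 0.788 to 0.84 across the 9607 genes tested, and 37.2% of its genes differed by more than 2-fold from the median of the rest. In TG replicate 3 this share was 9.27%, and in each of the remaining 6 arrays at most 1.55%. Genes are not independent replicates, so these correlations describe the arrays only. The probe set of Hey2 gave 5.87, 5.70, 6.26 and 6.02 in TG replicates 1 to 4 and 5.89, 5.96, 5.68 and 6.76 in WT replicates 1 to 4, so it did not separate the groups. The labels do not say whether it reads the transgene. TG and WT therefore stand for the labels of the arrays. All 12 cardiomyocyte markers, among them Myh6, Tnnt2 and Actc1, were above 5.

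No metalloproteinase or inhibitor passed in the comparison of TG with WT. With limma and Benjamini-Hochberg adjustment over all 9607 genes at 0.05, 0 of the 7 tested members were called, against 0% of all genes. Before adjustment, 0 members had a limma p below 0.05, against 1.59% of all genes (153). That count over all genes was unstable: it was 282, 232 and 541 without TG replicates 1, 2 and 4, and 34 and 43 without WT replicates 3 and 4, with 0 members in each. With limma's array weights it was 1529, with 1 member, Timp4. The values of TG and WT arrays overlapped for all 7, while 2.48% of all genes did not overlap. Of the 7, 2 had a higher mean in TG and 5 a lower one, with a median difference of -0.30 on the log2 scale, against 0.06 over all genes tested. Of all 9607 genes, 5478 had a higher mean in TG and 4129 a lower one. Over the 9 members with a probe set the median was -0.12. Without TG replicate 3 the median over the 7 was 0.22, and without TG replicates 2 and 3 it was -0.03. The median half-width of the 95% confidence interval was 1.20 log2 units for the 7 members and 0.61 for all genes.

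Most of the tested members shared their highest and lowest arrays. Mmp2, Mmp14, Timp1, Timp2 and Reck each had their highest value in TG replicate 2 and their lowest in TG replicate 3. These are 5 of the 7 tested members, whereas 16.7% of all genes had these extremes. TG replicate 3 was the lowest array for 5 members, against 23.5% of all genes, and TG replicate 2 the highest for 6, against 46.8%. Mmp2, Mmp14 and Timp1 lay over 1 log2 unit below the WT mean in TG replicate 3, which held for 6.26% of all genes. Timp3 and Timp4 did not have both these extremes, and the arrays in between were ordered differently from member to member.

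**Figure D1:**
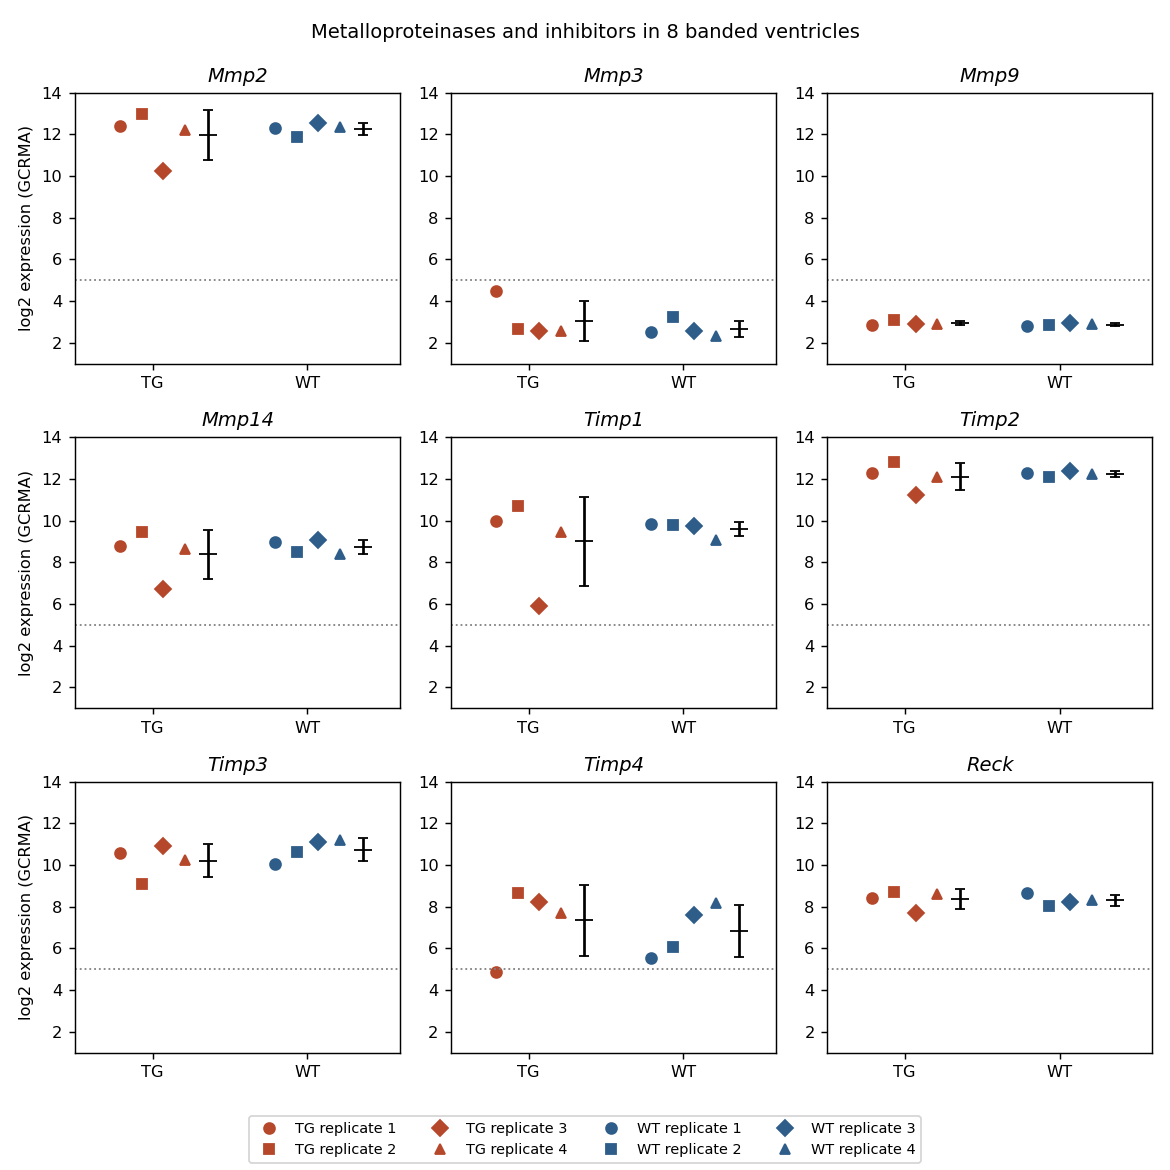
Log2 expression (y axis) of the 9 members with a probe set in the 4 TG arrays (left in each panel) and the 4 WT arrays (right). Each symbol is 1 mouse, the black mark and bar are the group mean and SD, and the dotted line is the log2 value of 5 below which members were not tested. TG replicate 3 (diamond) is the lowest array for Mmp2, Mmp14, Timp1, Timp2 and Reck, and Timp4 is spread widely in both groups.

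Mmp2 encodes gelatinase A, a secreted enzyme that cuts basement membrane and denatured collagen. Its log2 values were 12.42, 12.99, 10.23 and 12.21 in TG replicates 1 to 4, against 11.88 to 12.53 in the WT arrays. TG replicate 2 lay above every WT array and TG replicate 3 below every WT array, while TG replicates 1 and 4 lay inside the WT range. Mean levels were 11.96 ± 1.20 in TG and 12.26 ± 0.28 in WT (SD, n = 4 each). The difference was -0.30 (SE 0.532, 95% confidence interval -1.52 to 0.91), a TG level of 0.81 times the WT level, within the spread of the arrays (limma adjusted p = 0.846; exact two-sided permutation p = 0.800). The smallest p this permutation test can give with 4 mice against 4 is 0.0286. Without TG replicate 3 the difference was 0.27, and without TG replicates 2 and 3 it was 0.05, so its sign rested on 1 array. The other Mmp2 probe set had the same highest and lowest arrays: it gave 9.71 in TG replicate 3, between 11.67 and 12.58 in the other TG arrays, and between 11.49 and 12.06 in the WT arrays.

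Mmp14 encodes a membrane-bound metalloproteinase that cuts fibrillar collagen and activates the precursor of Mmp2 at the cell surface, with Timp2 as the bridge between the proteins. Its values were 8.78, 9.46, 6.71 and 8.62 in TG replicates 1 to 4 and 8.96, 8.50, 9.05 and 8.40 in WT replicates 1 to 4. Again TG replicate 2 was above and TG replicate 3 below all WT arrays. The difference was -0.34 (SE 0.527, 95% confidence interval -1.54 to 0.87; limma adjusted p = 0.833). It was 0.22 without TG replicate 3 and -0.03 without TG replicates 2 and 3. All 3 probe sets of Mmp14 had their lowest value in TG replicate 3, at -2.01, -1.89 and -1.27 from their WT means. The highest array was TG replicate 2 in 2 of them and WT replicate 3 in the third, whose values lay near 5.

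Mmp3, stromelysin, which cuts proteoglycans and can activate other metalloproteinases, was below 5 in every array. It stood at 4.50 in TG replicate 1 and between 2.56 and 2.66 in the other TG arrays, against 2.35 to 3.24 in the WT arrays. Mmp9, gelatinase B, a product of neutrophils and macrophages among other cells, lay between 2.86 and 3.08 in TG and between 2.79 and 2.94 in WT. Its second probe set was lower still, between 1.80 and 1.87 over the 8 arrays. At these levels no difference is read here. Of 18 other metalloproteinase genes, 14 had a probe set, 11 lay below 5 in every array, and Mmp11, Mmp17 and Mmp23 were tested. Mmp23, a membrane-associated family member, had the highest and lowest arrays of Mmp2 and Mmp14 with 8.12, 9.20, 5.46 and 7.87 in TG replicates 1 to 4, against 7.72 to 8.25 in WT, and a difference of -0.29 (SE 0.683; limma adjusted p = 0.883). It was 0.44 without TG replicate 3. Mmp11 and Mmp17 differed by 0.32 and -0.08, and both were also highest in TG replicate 2 and lowest in TG replicate 3.

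Timp1, an inducible inhibitor that also signals through the tetraspanin Cd63, had the widest spread of these genes over the 8 arrays. It read 9.96, 10.72, 5.91 and 9.48 in TG replicates 1 to 4, against 9.83, 9.78, 9.73 and 9.09 in WT replicates 1 to 4. On the log2 scale TG replicate 3 lay at -3.69 from the WT mean, while TG replicate 2 lay at 1.11. Mean levels were 9.02 ± 2.13 in TG and 9.61 ± 0.35 in WT (SD, n = 4 each), a difference of -0.59 (SE 0.912, 95% confidence interval -2.67 to 1.49; limma adjusted p = 0.833). Without TG replicate 3 the difference was 0.44, and without TG replicates 2 and 3 it was 0.11. Timp1 has 1 probe set, so no other probe set bears on the low value. Its SD over the 8 arrays was at the 99.0th percentile of the genes tested, whereas the SD of the 6 arrays left without TG replicates 2 and 3 was 0.31, at the 82.7th percentile.

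Timp2, the inhibitor that also serves the activation of Mmp2 by Mmp14, gave 12.30, 12.82, 11.25 and 12.07 in TG replicates 1 to 4, against 12.26, 12.08, 12.39 and 12.21 in WT replicates 1 to 4. The WT arrays were close to each other, with an SD of 0.13 at percentile 28.1 of the genes tested, and the TG SD was 0.65. The difference was -0.12 (SE 0.308, 95% confidence interval -0.82 to 0.58; limma adjusted p = 0.889). Its sign depended on the probe set and on the array. Of 6 probe sets 1 lay below 5 in every array, and the differences of the other 5 ran between -0.12 and 0.34. All 5 were highest in TG replicate 2, and 4 were lowest in TG replicate 3. The fifth, which gave the difference of 0.34, was lowest in TG replicate 4. Without TG replicate 3 the difference of the probe set with the highest mean was 0.16, and with the mean of all probe sets of the gene it was 0.04.

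The promoters of Mmp14, Timp1 and Timp2, which had the same highest and lowest arrays, are shown beside that of Timp4, which had another lowest array. Each covers 250 bases before and 50 after the start site, is credited to RefSeq on build GRCm38.p6, and reads 5′ to 3′ on the strand of the gene. The table had an entry for 8 of the 10 members, Mmp2 and Mmp9 being the exceptions. Capitals mark the GC box GGGCGG, which Sp1 binds, and the ETS core AGGAAG, on either strand.
Mmp14, chr14:54431348-54431647, plus strand: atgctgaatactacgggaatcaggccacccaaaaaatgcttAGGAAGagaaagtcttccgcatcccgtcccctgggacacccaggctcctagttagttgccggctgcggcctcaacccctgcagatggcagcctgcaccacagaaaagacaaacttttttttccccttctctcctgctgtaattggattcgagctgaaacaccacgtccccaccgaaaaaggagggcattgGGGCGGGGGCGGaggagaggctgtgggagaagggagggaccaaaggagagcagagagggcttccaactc
Timp1, chrX:20869916-20870215, plus strand: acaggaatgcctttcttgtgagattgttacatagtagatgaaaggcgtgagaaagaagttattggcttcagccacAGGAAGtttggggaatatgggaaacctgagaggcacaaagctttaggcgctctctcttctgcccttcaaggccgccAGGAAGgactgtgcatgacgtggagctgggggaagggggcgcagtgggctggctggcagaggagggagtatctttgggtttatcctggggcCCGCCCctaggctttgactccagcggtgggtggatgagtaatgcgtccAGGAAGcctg
Timp2, chr11:118355362-118355661, minus strand: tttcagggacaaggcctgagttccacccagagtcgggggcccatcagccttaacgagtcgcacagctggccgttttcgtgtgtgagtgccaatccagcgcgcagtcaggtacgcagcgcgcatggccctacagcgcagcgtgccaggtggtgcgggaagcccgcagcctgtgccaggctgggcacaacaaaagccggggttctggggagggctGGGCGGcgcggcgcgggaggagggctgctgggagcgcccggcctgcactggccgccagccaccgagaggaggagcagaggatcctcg
Timp4, chr6:115252156-115252455, minus strand: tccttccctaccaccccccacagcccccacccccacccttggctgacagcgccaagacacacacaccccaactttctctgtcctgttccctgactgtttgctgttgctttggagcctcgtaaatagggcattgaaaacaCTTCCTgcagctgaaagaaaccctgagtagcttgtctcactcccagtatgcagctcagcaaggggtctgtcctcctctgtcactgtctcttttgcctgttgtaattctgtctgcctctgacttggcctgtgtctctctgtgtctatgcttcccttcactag
Motifs were searched on both strands as exact letters, with position 1 at the first base of the last 50. GGGCGG occurred in Mmp14 from -19 and -13, in Timp1 from -8 and in Timp2 from -37, and it occurred in 6 of the 8 member promoters, Reck, Timp3 and Mmp15 being the others, against 35.7% of the 32851 promoters. AGGAAG occurred in 5 of 8, against 35.4%, with 3 copies in Timp1 and 1 in Timp4. The AP-1 letters TGANTCA were found in Mmp3 alone of the 8 (7.81% of all promoters), and the related TGAGTAA in Timp1 alone, from 27 (2.68%). The E box CACGTG, which hairy-related proteins can bind, was in 0 of 8 (7.15% of all), and the related CACGCG was in Timp3 from -70 (9.27%). No match found overlapped another in these promoters. Timp4 held no GGGCGG and had 53.3% G and C and 2 CG pairs. Timp1 had 55.0% and 8, Mmp14 56.0% and 10, and Timp2 68.7% and 25. The medians of all promoters were 52.7% and 7, so in G and C Timp4 was near the median and Timp2 was high. These matches describe letters in a short window, not binding sites.

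Timp3, which stays bound to the matrix and also inhibits Adam17 and the binding of VEGF to Kdr, did not have its lowest value in TG replicate 3. It read 10.60, 9.11, 10.90 and 10.26 in TG replicates 1 to 4, against 10.05, 10.61, 11.12 and 11.20 in WT replicates 1 to 4. TG replicate 2 lay below every WT array and the other TG arrays lay inside the WT range. Mean levels were 10.22 ± 0.78 in TG and 10.75 ± 0.53 in WT (SD, n = 4 each), a difference of -0.53 (SE 0.416, 95% confidence interval -1.48 to 0.42). This was the smallest p of the members and it did not pass (unadjusted limma p = 0.236, adjusted p = 0.813; exact permutation p = 0.286). All 4 probe sets of Timp3 had a lower mean in TG, with differences between -0.55 and -0.11, and all 4 were highest in WT replicate 4. They disagreed about TG replicate 2, which lay at -1.63 and -1.50 from the WT mean in the 2 brighter probe sets but at -0.20 and -0.11 in the 2 dimmer ones. Without TG replicate 2 the difference was -0.16, and without TG replicates 2 and 3 it was -0.32. The sign of Timp3 was the same under all alternatives run.

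Timp4, an inhibitor that is abundant in the heart, varied more between WT mice than nearly every other gene. Its values were 4.88, 8.64, 8.24 and 7.68 in TG replicates 1 to 4, against 5.54, 6.07, 7.59 and 8.17 in WT replicates 1 to 4. Both groups held low and high arrays: TG replicate 1 and WT replicates 1 and 2 were the low ones. Mean levels were 7.36 ± 1.70 in TG and 6.84 ± 1.24 in WT (SD, n = 4 each). The WT SD ranked 15 of 9607 genes, at the 99.9th percentile, where the median gene had 0.19. Among the 6 arrays left without TG replicates 2 and 3 the SD was 1.34, rank 11, so the spread of Timp4 did not rest on those 2 arrays. The difference of 0.51 (SE 0.890, 95% confidence interval -1.51 to 2.54; limma adjusted p = 0.845) was well inside that spread. It was 0.09 without TG replicate 2, 0.22 without TG replicate 3, 1.34 without TG replicate 1 and -0.56 without TG replicates 2 and 3. With limma's array weights, which gave TG replicate 1 a weight of 6.62 and TG replicate 2 a weight of 0.05, it was -1.89. That limma fit gave an unadjusted p = 0.0242 and a limma adjusted p = 0.262 for Timp4. The second probe set of Timp4 gave 4.19, 6.31, 6.16 and 5.21 in TG and 5.03, 5.18, 5.22 and 5.26 in WT. It had the same lowest and highest arrays, TG replicates 1 and 2, but a WT SD of 0.10 close to the level of 5, so the spread between WT mice was read by 1 of the 2 probe sets.

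**Figure D2:**
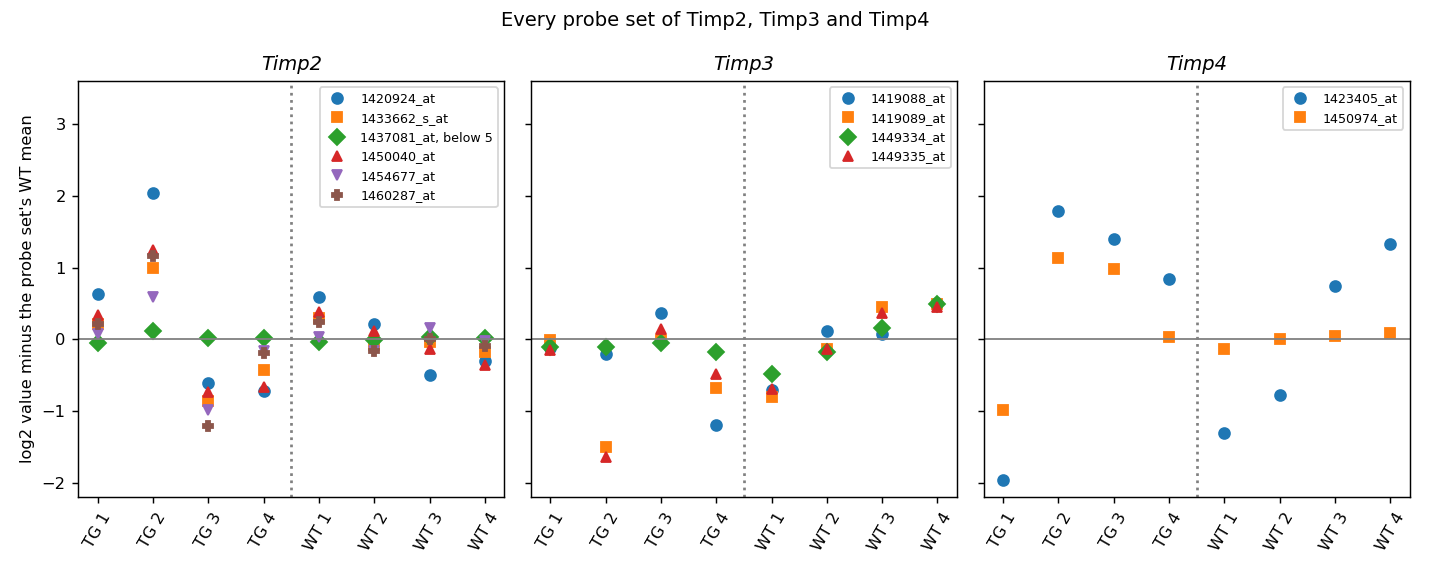
Log2 value minus the WT mean of the same probe set (y axis) in the 4 TG and 4 WT arrays (x axis) for the 6 probe sets of Timp2, the 4 of Timp3 and the 2 of Timp4. Each symbol is 1 probe set. In TG replicate 2 the Timp3 probe sets separate into -1.63 and -1.50 against -0.20 and -0.11, and in WT 1 probe set of Timp4 spreads from -1.30 to 1.33 while the other stays near 0.

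Reck, an anchored membrane glycoprotein that inhibits Mmp2, Mmp9 and Mmp14, gave 8.44, 8.73, 7.70 and 8.61 in TG replicates 1 to 4, against 8.65, 8.03, 8.23 and 8.32 in WT replicates 1 to 4. Apart from TG replicate 3, below every WT array, and TG replicate 2, just above, the groups lay together. The difference was 0.06 (SE 0.258, 95% confidence interval -0.53 to 0.65; limma adjusted p = 0.929), 0.28 without TG replicate 3 and -0.06 without TG replicate 2. Reck was the tested member with the narrowest spread over the 8 arrays, with an SD of 0.35, at the 41.0th percentile of the genes tested.

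**Figure D3:**
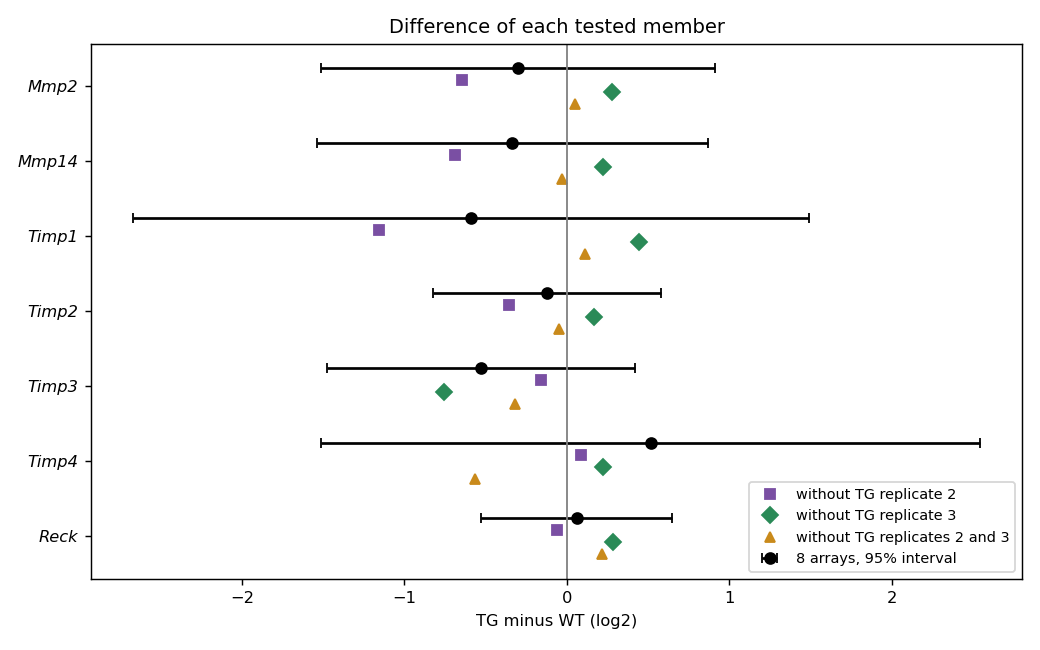
TG minus WT difference on the log2 scale (x axis) of the 7 tested members (y axis). Black points and bars are the difference over all 8 arrays with its 95% confidence interval, and coloured symbols the difference without TG replicate 2, without TG replicate 3, and without both. Every interval spans 0, and Mmp2, Mmp14, Timp1 and Timp2 lie to the right of 0 without TG replicate 3.

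Because 5 of the 7 tested members shared their highest and lowest arrays, enzymes and inhibitors were also set against each other as deviations from their own WT means. The mean deviation of Mmp2 and Mmp14 was 0.10, 0.73, -2.03 and -0.08 in TG replicates 1 to 4, against -0.31 to 0.29 in WT. That of the 4 TIMPs was -0.42, 0.46, -0.78 and 0.02 in TG, against -0.44 to 0.35 in WT. The TIMPs did not move together. In TG replicate 3 Timp1 to Timp4 lay at -3.69, -0.98, 0.15 and 1.39, and in TG replicate 2 at 1.11, 0.59, -1.63 and 1.80. Their mean therefore averages opposite moves. Enzymes minus inhibitors came to 0.53, 0.26, -1.24 and -0.10 in TG and to 0.58, -0.08, -0.06 and -0.44 in WT, so only TG replicate 3 left the range of the WT arrays. The sign in that array depended on which inhibitor was taken. There Mmp2 minus Timp2 was -1.05, whereas Mmp2 minus Timp1 was 1.66, since Timp1 lay further below its WT mean than Mmp2 did. In the other 3 TG arrays Mmp2 minus Timp2 was between 0.09 and 0.14, inside or close to the WT range of -0.23 to 0.11. These are sums over chosen genes, without a test, and say nothing of protein or activity.

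Genes with the array profile most like that of a member were sought among the other 9600 genes tested, for the 5 members with an SD over 0.5 in the 8 arrays. The measure was the root mean square difference between deviations from the WT means over the 8 arrays, in log2 units. Nearest to Mmp2 were Adcy7 at 0.099, Col6a1, a chain of type VI collagen, at 0.13 and Frzb, a secreted Wnt antagonist, at 0.15. Nearest to Mmp14 were Tgfb3, a transforming growth factor beta ligand, at 0.094, P3h3, a collagen prolyl hydroxylase, at 0.12 and Col6a1 at 0.12. Timp1 was less closely matched, by Tmem119 at 0.33, Fn1, fibronectin, at 0.33 and Nkd2 at 0.34. Since the measure covered all 8 arrays, genes chosen by it had to lie far below the WT mean in TG replicate 3. Their values there were between -3.82 and -1.74. Timp3 was nearest to Alg11 at 0.21, Lin7a at 0.23 and Selenoi at 0.24. Timp4 had the most distant neighbours, Fam107a at 0.50, Bcl2l1, an inhibitor of apoptosis, at 0.69 and Slc10a6 at 0.80. Fam107a lay at -1.87, 1.19, 0.54 and 0.31 from its WT mean in TG replicates 1 to 4 and at -1.43, -0.73, 1.32 and 0.84 in WT replicates 1 to 4. It was low in the same 3 arrays as Timp4, which the way it was chosen favours.

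Matrix proteins, on which these enzymes act, had a lower mean in TG for 22 of 22 tested genes, with a median difference of -0.50, and 0 passed. Of all 9607 genes, 4129 had a lower mean in TG. TG replicate 3 was the lowest array for 20 of the 22, against 23.5% of all genes. The median lay at -1.72 from the WT mean in TG replicate 3, and without that array it was -0.02. Nid1, nidogen, differed by -0.42 (SE 0.206), Postn, periostin, by -1.35 (SE 0.675) and Vcan, versican, by -0.90 (SE 0.473), and without TG replicates 2 and 3 by -0.15, -0.18 and -0.11. Of the related ADAM and ADAMTS proteases 4 of 15 tested had a higher and 11 a lower mean in TG, with a median of -0.39, or -0.05 without TG replicates 2 and 3, and 0 passed. Adamts1, which cuts versican, differed by -0.91 (SE 0.468), Adamts12 by -1.12 (SE 0.599) and Adam12 by -0.46 (SE 0.259). Adamts12 and Adam12 lay near 5 and passed the filter with every WT array above it. In TG only replicate 1 of Adamts12 and replicates 2 and 4 of Adam12 were above 5, which limits both differences. Adamts12 was 2.30 in TG replicate 3 and no lower than 4.83 elsewhere, and without TG replicate 3 it differed by -0.45. Adamts1 was 7.07 in TG replicate 2 and differed by -0.47 without that array. The smallest limma adjusted p in either list was 0.813.

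Proteases and serpins that activate or oppose metalloproteinases had a higher mean in TG for 4 of 13 tested genes and a lower one for 9, with a median of -0.09 (0.18 without TG replicate 3), and 0 passed. Ctss and Ctsk, cathepsins that degrade matrix, differed by -0.51 (SE 0.344) and -0.73 (SE 0.817), and Pcsk6, a proprotein convertase, by 0.37 (SE 0.258). Ctsk read 8.33, 9.09, 4.90 and 8.40 in TG replicates 1 to 4, against 7.86 to 8.84 in WT, again with TG replicate 3 far below the rest, and it differed by 0.20 without that array. Among binding partners 4 of 10 were higher and 6 lower, with a median of -0.16 (0.13 without TG replicate 3). The integrin subunits Itgav and Itgb1 differed by -0.73 (SE 0.374) and -0.47 (SE 0.380), and Cav1, caveolin, by 0.17 (SE 0.168). Without TG replicates 2 and 3 Itgav differed by -0.09 and Itgb1 by 0.20. Cytokines and transcription factors that induce these genes were evenly divided, with 8 of 16 higher and 8 lower and a median of 0.01 (-0.20 without TG replicate 2). Il1b, Ets1 and Osmr, the oncostatin M receptor, differed by -0.60 (SE 0.367), -0.56 (SE 0.349) and -0.38 (SE 0.257), and Ets1 by -0.06 without TG replicates 2 and 3. Il1b lay near 5 and was above it only in TG replicate 2 and WT replicates 2, 3 and 4. The smallest limma adjusted p in these 3 lists was 0.813.

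Mean levels of fibroblast, macrophage and smooth muscle and pericyte markers were lowest in TG replicate 3, as were Mmp2, Mmp14, Timp1, Timp2 and Reck. Over the 8 arrays that of endothelial markers was not lowest there. Most lymphocyte and epicardial markers were below 5 in every array, where a fall could not be read. In bulk ventricle RNA, fewer cells of a type and less RNA per cell cannot be told apart. Fibroblast markers, all 12 above 5, had a mean log2 level of 11.66, 11.69, 10.03 and 11.40 in TG replicates 1 to 4, against 11.51 to 11.75 in WT. Of the 12, 8 were lowest in TG replicate 3, against 23.5% of all genes tested. The median fibroblast marker lay at -0.81 from its WT mean there. Col1a1, Dcn and Lum stood in both this list and that of matrix proteins. Macrophage markers, 11 of 12 above 5 with Itgam below, had 9.23, 9.57, 8.09 and 8.95 in TG, against 8.65 to 9.36 in WT. TG replicate 3 was thus the lowest and TG replicate 2 the highest TG array for both cell types, as for Mmp2, Mmp14, Timp1, Timp2 and Reck. Endothelial markers, 12 of 12 above 5, ran between 9.55 and 10.12 in TG and between 9.29 and 9.77 in WT, and 1 of the 12 was lowest in TG replicate 3. For smooth muscle and pericytes, 10 of 10 above 5, the ranges were 10.10 to 10.87 in TG and 10.45 to 10.57 in WT. The 10.10 was TG replicate 3 and the 10.87 TG replicate 2, and 4 of the 10 markers were lowest in TG replicate 3. The median of these 10 lay at only -0.14 from the WT mean in TG replicate 3. Cardiomyocyte markers spanned 14.94 to 15.15 in TG and 15.05 to 15.10 in WT. Of 10 neutrophil markers, 4 were above 5 in at least 4 arrays, and Mpo, Elane, Cxcr2, Ngp, Ltf and Camp were below 5 in every array. The mean level of the 10 was 3.85 to 4.37 in TG and 3.77 to 4.72 in WT. Lymphocyte markers were below 5 in every array for 8 of 9, epicardial markers for 6 of 7 and erythroid markers for 2 of 3, with mean levels of 2.94 to 3.27, 2.81 to 3.11 and 3.74 to 4.81 in TG, against 2.93 to 3.06, 2.89 to 2.99 and 4.16 to 4.47 in WT. The part of these cell types in the values of the members was not tested.

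**Figure D4:**
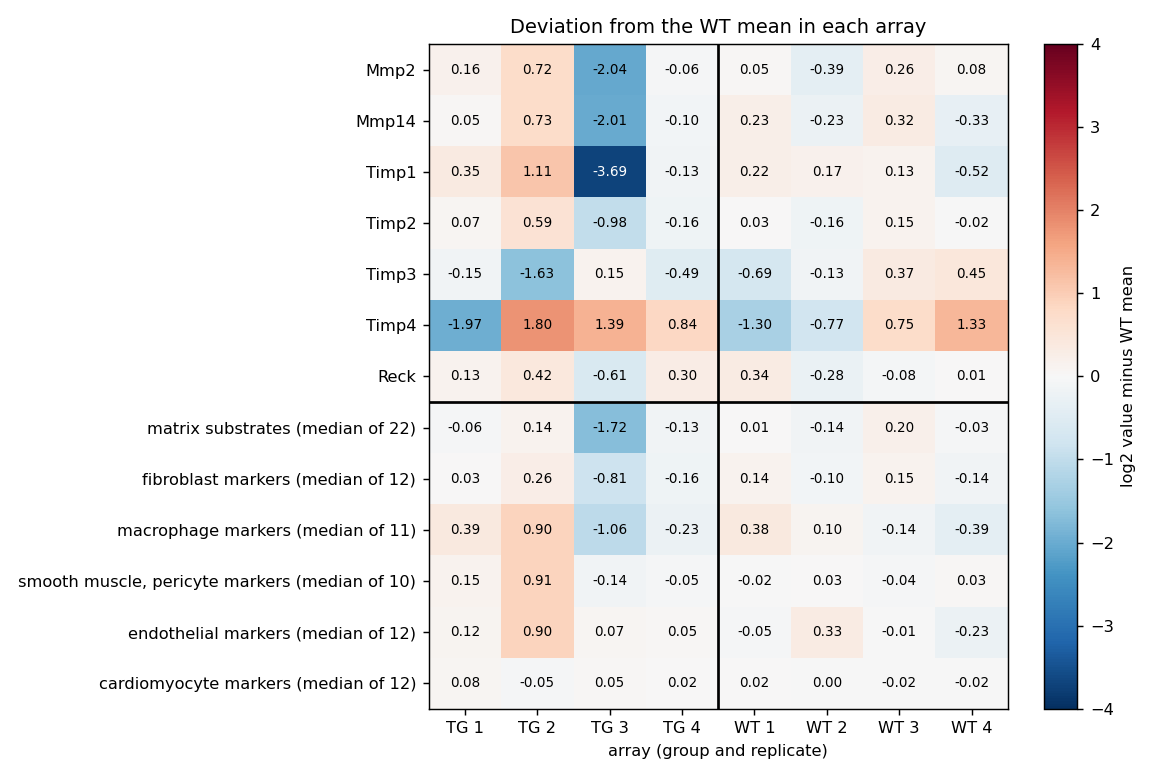
Log2 value minus the WT mean (colour and printed number) of the 7 tested members, above the line, and the median of 6 gene lists, below it, in the 4 TG arrays (left) and the 4 WT arrays (right). TG replicate 3 reads -3.69 for Timp1, -1.72 for matrix substrates and -0.81 for fibroblast markers. The cardiomyocyte list, whose levels lie near the array maxima, stays between -0.05 and 0.08.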

How the data were processed

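RNA of heart ventricle from 8 banded mice was hybridised to Affymetrix mouse arrays, with an array for each mouse. Per the labels, the authors deposited log2 values made with GCRMA (named in the submitters' notes), which corrects background by probe base composition, normalizes by quantiles and summarizes probe sets. No version of it is stated. Array medians lay between 3.33 and 3.43. Precision is limited by how few arrays there are. P-values measure the spread between these arrays, 1 per mouse, so differences between mice and between arrays cannot be told apart. The fit took 1 variance per gene for both groups. The 7 tested members had a median SD of 1.18 in TG and 0.33 in WT. Of 45101 probe sets, 34945 had 1 symbol, 932 had several and 9224 had none or were controls. Probe sets above 5 in at least 4 arrays were kept, 1 per gene by the highest mean, which left 9607 genes. The fit was limma 3.58.1 in R 4.3.3 (lmFit, eBayes) over all 8 arrays, TG minus WT, with Benjamini-Hochberg adjustment, and it was tested on simulated data. The simulation gave both groups the same spread and held no array that stood apart, so it did not cover that feature of these data. Members, lists and alternatives were chosen with earlier results of these data known. Named genes were all members, the 3 smallest p of each related list and the 3 genes most like each member with an SD over 0.5. Alternatives changed the filter, scaling, model, probe set rule and threshold, or left out arrays. Deviations of same-numbered arrays had r of 0.30, -0.01, -0.33 and 0.20 for numbers 1 to 4. Numbers 1 and 4 matched their own number best and numbers 2 and 3 did not, so numbers were not taken as pairs.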

Additional observations from a re-analysis of the deposited data

Results flagged for a closer look

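Mmp3 in TG replicate 1, at 4.496, stood apart from the other TG arrays, the nearest of which was 2.656, with a gap of 0.948 of the range of the group. All 8 values were below 5. Timp1 in WT replicate 4, at 9.088, stood below the other WT arrays, the nearest of which was 9.734 (gap 0.876 of the range). Of 18 groups of 4 looked at, chance alone gives such a gap in about 1 of 20.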

How the results depend on the processing

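No member was called under the main analysis or under any alternative run, with limma adjusted p at or above 0.262, the value of Timp4 with array weights. Over all genes, 1 was called with array weights and 0 under every other alternative. With array weights Timp1 and Timp4 turned to 0.23 and -1.89, the median difference of the members was -0.0073 against -0.30 in the main analysis, Mmp2 was -0.0073 and Mmp14 was -0.0040. Without transgenic replicates 2 and 3, Mmp2, Timp1 and Timp4 turned to 0.0517, 0.11 and -0.56. With the mean of all probe sets of a gene, Timp2 turned to 0.0426. Leaving out 1 array at a time, the difference ran from -0.64 to 0.27 for Mmp2, from -0.69 to 0.22 for Mmp14, from -1.16 to 0.44 for Timp1, from -0.36 to 0.16 for Timp2 and from -0.0581 to 0.28 for Reck. The upper ends come without transgenic replicate 3 and the lower ends without transgenic replicate 2. Reck also turned when transgenic replicate 4 (-0.0194) or wild-type replicate 2 (-0.0312) was left out. Timp3 had the same sign in all 18 alternatives, and added quantile normalization or centring turned no member. The cause of these turns was not tested. With the replicate block, a fit that the numbers do not justify, 0 genes and 0 members were called (smallest adjusted p 0.845) and the median difference of the members was -0.30. Signal near the background limits Mmp3, Mmp9, the second probe set of Timp4 and the dimmest of Mmp14. The tested probe set of Timp4 was also below 5 in TG replicate 1, at 4.88. Among the named genes of the lists it limits Adamts12, Adam12 and Il1b.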
